A study of Homo sapiens with 15 samples.

Results

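The JUN family consists of 3 genes, JUN, JUNB and JUND, which were taken by gene symbol from a table of 26485 genes. RNA-seq read counts were available for 15 libraries of U937 and ML1, both human acute myeloid leukemia cell lines, in 5 groups of 3 libraries. The groups were U937 with 10 nM prexasertib plus 350 nM LSN622666, U937 with 10 nM prexasertib, U937 with diluent, ML1 with 10 nM prexasertib and ML1 with diluent. Prexasertib inhibits the checkpoint kinase CHK1, and LSN622666 is known here by its code name only. Treatment lasted 24 h, and every culture, the diluent ones included, also received the caspase inhibitor Q-VD-OPh at 5 µM. LSN622666 was not given by itself to any group, and it was not added in ML1. The study asked which candidate transcription factors of TNF, the gene of the cytokine TNFα, changed in mRNA level.

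JUN proteins are basic leucine zipper (bZIP) transcription factors and form the core of AP-1, a dimer that binds DNA at AP-1 and CRE sites. They pair with each other or with FOS, ATF, BATF and MAF proteins. JUN is the target of the JNK kinases, which phosphorylate its activation domain, and it activates its own promoter. JUNB is a second, often antagonistic subunit, and JUND is present in resting cells. In myeloid cells AP-1 takes part in monocytic differentiation and in the response to cytokines and stress.

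Totals ran from 49011222 to 87301014 counts per library, and 17243 genes had enough counts to be tested. The myeloid markers CD33, SPI1, CEBPA and PTPRC were at 59 CPM or higher in every U937 library and at 79.1 CPM or higher in every ML1 library (CPM, counts per 1000000 after scaling of library totals). Of the other 5 myeloid markers, CSF3R was at 46 CPM or higher throughout, and LYZ ran from 134 to 191 CPM in U937 and from 401 to 4460 CPM in ML1. ITGAM ran from 10.1 to 19.4 CPM in U937 and from 31.4 to 157 CPM in ML1. MPO was low in U937 (1.92 to 5.64 CPM) and high in ML1 (349 to 1060 CPM), and CD14 was low in both (at most 1.9 and 7.67 CPM). Of 14 markers of other cell types, CD3D, CD3E and EPCAM had no read in any library, and the summed level of the 14 was 28.3 to 36.3 CPM with prexasertib plus LSN622666, 20.9 to 26.9 CPM with prexasertib and 23 to 35.3 CPM with diluent in U937. It was 10.5 to 27 CPM with prexasertib and 2.26 to 3.58 CPM with diluent in ML1, where it moved with the treatment, mostly through the B-cell factor PAX5 (0.017 to 24.8 CPM over the ML1 libraries). The part of this in the ML1 results was not tested. In U937 with prexasertib, replicate 2 was the farthest from its group: chi-square per gene was 129 and 157 against replicates 1 and 3, and 64.1 between those. Values without it are given for prexasertib against diluent in U937, for the members and the partner and AP-1 target lists. The other lists were not recounted without it. In bulk RNA, fewer cells that express a gene and less RNA per cell cannot be told apart.

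JUN lies on chromosome 1 (58780788 to 58784327, minus strand), and JUNB (12791496 to 12793315, plus strand) and JUND (18279760 to 18281622, minus strand) lie on chromosome 19, in GENCODE v29 on GRCh38. Each has 1 exon block and no intron. JUNB shares 259 exonic bases with HOOK2, a gene on the opposite strand, and reads in that stretch cannot be assigned by strand because the library kit does not mark it. The stretches before the RefSeq starts are shown because the genes moved together and because JUN is known to act on its own promoter. They are the 250 bases before each RefSeq start in GRCh38.p14, 5′ to 3′ on the gene's strand. JUN is at chr1:58784048-58784297 (minus strand), JUNB at chr19:12791236-12791485 (plus strand) and JUND at chr19:18281623-18281872 (minus strand). GENCODE v29 places the start of JUN farther upstream than RefSeq, so that the JUN stretch lies inside the GENCODE gene. Capitals mark exact matches, on either strand, to the AP-1-like octamer of the JUN promoter (TGACATCA), the CRE (TGACGTCA), the CCAAT box (CCAAT) and the GC box (GGGCGG).
JUN: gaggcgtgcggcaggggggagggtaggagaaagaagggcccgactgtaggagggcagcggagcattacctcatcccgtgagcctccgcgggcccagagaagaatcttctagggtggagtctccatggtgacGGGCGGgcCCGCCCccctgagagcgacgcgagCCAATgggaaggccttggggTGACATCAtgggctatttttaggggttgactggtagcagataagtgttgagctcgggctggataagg
JUNB: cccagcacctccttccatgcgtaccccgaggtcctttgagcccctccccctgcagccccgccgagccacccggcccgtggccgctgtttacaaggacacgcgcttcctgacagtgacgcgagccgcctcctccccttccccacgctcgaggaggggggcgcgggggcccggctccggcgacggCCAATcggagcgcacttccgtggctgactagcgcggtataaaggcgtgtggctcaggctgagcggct
JUND: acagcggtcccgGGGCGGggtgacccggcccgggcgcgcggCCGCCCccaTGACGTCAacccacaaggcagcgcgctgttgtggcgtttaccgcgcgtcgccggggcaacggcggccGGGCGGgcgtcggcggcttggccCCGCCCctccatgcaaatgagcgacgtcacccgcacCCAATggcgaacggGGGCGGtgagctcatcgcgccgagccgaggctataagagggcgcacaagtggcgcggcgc

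The JUN stretch held the octamer TGACATCA, whose first base is at -67 (-1 being the base before the RefSeq start), which stood in 2.37% of the 35116 RefSeq promoters over the same 250 bases. The JUND stretch held the CRE TGACGTCA from -200, found in 1.65% of those promoters. A CCAAT box began at -87 in JUN, -67 in JUNB and -74 in JUND, and 32% of promoters had one. GC boxes numbered 2 in JUN, 0 in JUNB and 5 in JUND, and 42.6% of promoters had at least 1. The AP-1 site TGACTCA (4.2% of promoters) had no exact match in these 3 windows. Nor had an NF-kB-like pattern of GGG, A or G, any base, C or T at 2 positions, then CC (10.8%). The usual NF-kB consensus is longer, and it was not searched. The stretches of JUN, JUNB and JUND had a GC content of 62%, 70.8% and 74.8%. These matches describe letters, not binding.

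**Figure D1:**
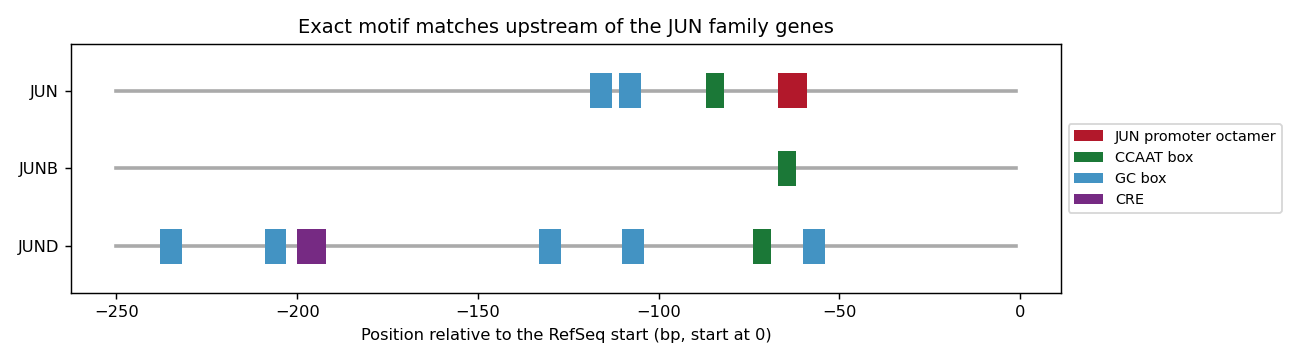
Positions of exact motif matches (coloured bars) in the 250 bases before the RefSeq start of JUN, JUNB and JUND, in bp relative to the start. The octamer is seen in JUN only, the CRE in JUND only and a CCAAT box in all 3 windows.

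JUN was the member that moved most in U937. It stood at 27.2, 64.7 and 24.9 CPM in the prexasertib plus LSN622666 libraries, replicates 1, 2 and 3, at 482, 856 and 336 CPM in the prexasertib libraries and at 27.3, 30.1 and 24.9 CPM in the diluent libraries. Each library with prexasertib alone was above every other U937 library, and the other 2 groups overlapped. In raw counts these were 1821, 4729 and 2048 with both compounds, 32724, 56268 and 22299 with prexasertib and 1905, 1672 and 1163 with diluent. By raw count JUN ranked 205, 77 and 430 among the genes of the prexasertib libraries, and 6887, 6592 and 7152 in the diluent libraries.

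JUNB, the second subunit, stood at 57.0, 75.2 and 48.0 CPM with both compounds, at 185, 218 and 138 CPM with prexasertib and at 73.5, 64.8 and 48.8 CPM with diluent in U937. JUND stood at 45.9, 53.3 and 42.9 CPM with both compounds, at 184, 202 and 136 CPM with prexasertib and at 61.3, 52.6 and 47.8 CPM with diluent. As with JUN, the prexasertib libraries lay above all others and the remaining groups overlapped.

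**Figure D2:**
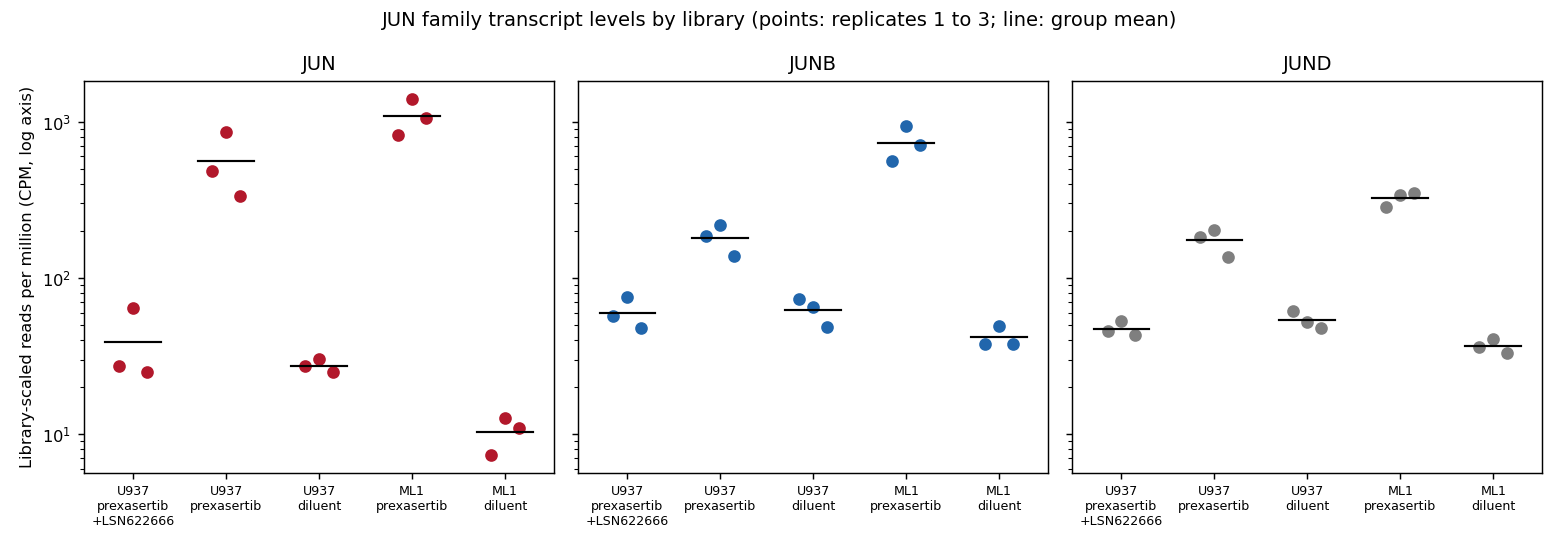
Counts per 1000000 after scaling (CPM, log axis) of JUN, JUNB and JUND in each of the 15 libraries, by group, with a line at the group mean. The prexasertib libraries are above the diluent libraries in both lines, and in U937 the libraries with LSN622666 added overlap the diluent libraries.

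With prexasertib the 3 members rose in U937, 3 of 3 against 18.3% of all tested genes called higher (31.1% were called in either direction). The log2 fold change against diluent was 4.35 for JUN (95% confidence interval 3.46 to 5.24, a 20.4-fold rise, adjusted p = 6.56e-06). For JUNB it was 1.53 (1.07 to 1.99, 2.89-fold, adjusted p = 9.41e-05) and for JUND 1.69 (1.37 to 2.00, 3.23-fold, adjusted p = 1.56e-06). All adjusted p-values here come from the edgeR quasi-likelihood fit, with the Benjamini-Hochberg method applied across 17243 genes. Nothing in the labels states that the replicates were grown apart, so a p-value reflects how these libraries vary, which may be technical. JUND, with the smallest spread, ranked 21 by p among the 17243 genes, JUN ranked 80 and JUNB 317. By size of rise JUN ranked 347, JUND 1579 and JUNB 1766.

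Without prexasertib replicate 2 the values were 3.87, 1.35 and 1.54 for JUN, JUNB and JUND, and all 3 calls held.

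In ML1 the rises were larger. JUN stood at 820, 1404 and 1057 CPM with prexasertib and at 7.37, 12.6 and 10.96 CPM with diluent. JUNB stood at 558, 942 and 711 CPM with prexasertib and at 38.0, 49.5 and 38.0 CPM with diluent, and JUND at 287, 339 and 351 CPM with prexasertib and at 36.4, 40.4 and 33.2 CPM with diluent. No treated library overlapped a diluent library for any member. JUN was among the 122 genes with the highest counts in each prexasertib library of ML1 (rank 122, 56 and 97), and ranked 9781, 8866 and 9133 with diluent. The family together took 0.164%, 0.252% and 0.203% of all counts with prexasertib and 0.00818%, 0.00990% and 0.00816% with diluent.

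The ML1 log2 fold changes were 6.72 for JUN (95% confidence interval 5.73 to 7.72, adjusted p = 1.64e-08), 4.14 for JUNB (3.63 to 4.65, adjusted p = 3.78e-10) and 3.15 for JUND (2.82 to 3.48, adjusted p = 5.97e-11). Thus 3 of 3 rose, against 25.3% of all tested genes called higher and 48.8% called in all. The difference between the lines was itself tested. The prexasertib effect in U937 minus that in ML1 was -2.38 ± 0.53 for JUN (standard error, adjusted p = 0.00361), -2.61 ± 0.31 for JUNB (adjusted p = 6.33e-06) and -1.46 ± 0.21 for JUND (adjusted p = 4.84e-05), so that each rose less in U937. In this test 12.3% of all genes were called lower, 24.7% in all. TNF moved the same way, at -3.05 ± 0.55 (adjusted p = 0.000791).

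Starting levels differed too. With diluent, JUN was higher in U937 than in ML1 by 1.41 ± 0.38 on the log2 scale (adjusted p = 0.00448) and JUND by 0.56 ± 0.15 (adjusted p = 0.00323), both without overlap of libraries. JUNB was higher by 0.58 ± 0.21 (adjusted p = 0.027), with overlap, and that call ended without U937 diluent replicate 1 or 2 (adjusted p = 0.124 and 0.0658) or ML1 diluent replicate 1 or 3 (0.0914 and 0.091). Between the lines 32.0% of all tested genes were called higher and 29.4% lower in U937, 61.4% in all. With prexasertib the JUN libraries of the lines overlapped, at 336 to 856 CPM in U937 and 820 to 1404 CPM in ML1, and those levels were not tested against each other.

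LSN622666, added to prexasertib, lowered the 3 members in U937. The log2 fold change against prexasertib alone was -3.84 for JUN (95% confidence interval -4.71 to -2.98, adjusted p = 2.24e-05), -1.59 for JUNB (-2.04 to -1.13, adjusted p = 7.82e-05) and -1.88 for JUND (-2.19 to -1.56, adjusted p = 1.64e-06). Thus 3 of 3 fell, against 17.1% of all tested genes called lower (29.0% in all). JUND ranked 4 by p among the 17243 genes. No library with both compounds overlapped a prexasertib library for any of the 3.

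Replicate numbers paired these 2 groups, and replicate 2 was the highest of its group for all 3 members in both. Within numbers 1, 2 and 3, the JUN level with both compounds was 0.0565, 0.0755 and 0.0741 of that with prexasertib alone. The ratios were 0.308, 0.345 and 0.347 for JUNB and 0.25, 0.264 and 0.315 for JUND. For TNF they were 0.406, 0.424 and 0.408. In each number the ratio was lowest for JUN and highest for TNF.

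Against diluent, none of the 3 had a call with both compounds (edgeR, 11.0% of all tested genes called, 6.88% higher and 4.11% lower), and none had an unadjusted p under 0.05 or a DESeq2 call. JUN differed by 0.51 (95% confidence interval -0.28 to 1.29, adjusted p = 0.387), JUNB by -0.06 (-0.51 to 0.39, adjusted p = 0.895) and JUND by -0.19 (-0.50 to 0.12, adjusted p = 0.422). The upper ends of these intervals are 1.29 (JUN), 0.39 (JUNB) and 0.12 (JUND) on the log2 scale. The JUN value rests on replicate 2, at 64.7 CPM, and was -0.08 without it. Of the increment in mean CPM that prexasertib gave over diluent, 2.17% was left for JUN with both compounds, while the JUNB and JUND means were below diluent by 2.34 and 6.53 CPM. TNF was higher than with diluent, by 1.34 ± 0.40 (adjusted p = 0.0439), with 3 of 3 libraries above all diluent ones. All comparisons within U937 share libraries, so their values are not independent.

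**Figure D3:**
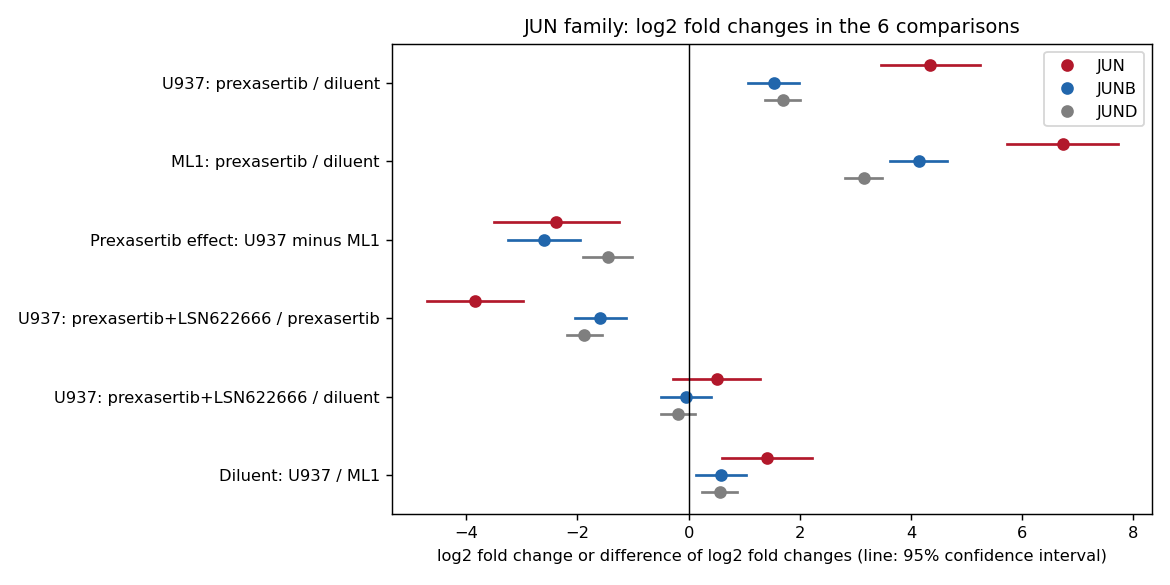
Log2 fold changes of JUN, JUNB and JUND in 6 comparisons, as points with 95% confidence intervals. JUN is the farthest from 0 under prexasertib in both lines (4.35 and 6.72), and all 3 intervals reach across 0 for both compounds against diluent.

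The members did not move equally. Ratios of counts within a library do not depend on library scaling. In U937 the log2 ratio of JUN to JUNB averaged 1.55 ± 0.38 with prexasertib and -1.17 ± 0.24 with diluent (SD, n = 3 each), and in ML1 0.57 ± 0.01 with prexasertib and -2.04 ± 0.29 with diluent. The ratio rose by 2.72 in U937 and by 2.61 in ML1, in each case without overlap between libraries (exact permutation test, two-sided, p = 0.1, the smallest that 3 against 3 can give). JUN also gained on JUND, by 2.56 in U937 and 3.58 in ML1 (exact permutation p = 0.1 each). With LSN622666 the JUN to JUNB ratio was -0.74 ± 0.46, which was 2.29 lower than with prexasertib alone, again without overlap. The JUN to JUND ratio was 0.55 higher than in diluent libraries, at -0.42 ± 0.61 with both compounds and -0.97 ± 0.18 with diluent, without overlap (exact permutation p = 0.1). The JUN to JUNB ratio was 0.43 higher there, with overlap (exact permutation p = 0.2). For JUN to JUND, replicates 1, 2 and 3 with both compounds stood at -0.75, 0.28 and -0.79, and the highest diluent library at -0.81. The JUN to JUND difference thus rests largely on replicate 2, and it ran from 0.20 to 0.73 with 1 library left out.

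The log2 count ratio of JUNB to JUND moved less. In U937 it was 0.05 ± 0.05 with prexasertib and 0.20 ± 0.15 with diluent (SD, n = 3 each), a difference of -0.15 with overlap (exact permutation p = 0.2). With both compounds it was 0.32 ± 0.17, which was 0.28 higher than with prexasertib alone and without overlap (exact permutation p = 0.1). In ML1 the ratio was 1.15 ± 0.28 with prexasertib and 0.18 ± 0.12 with diluent, a rise of 0.97 without overlap (exact permutation p = 0.1, the smallest possible). A design of 3 against 3 cannot reach the 0.05 threshold, so these are sizes with no call.

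Levels of different genes were compared per kb of RefSeq gene length (3257, 1830 and 1929 bases for JUN, JUNB and JUND). In U937 with both compounds JUNB led at 32.8 ± 7.57 CPM per kb, followed by JUND at 24.6 ± 2.78 and JUN at 11.95 ± 6.86 CPM per kb. With prexasertib JUN led at 171 ± 82.4, followed by JUNB at 98.5 ± 21.9 and JUND at 90.2 ± 17.7 CPM per kb. The JUN libraries (103 to 263 CPM per kb) overlapped those of JUNB (75.5 to 119) and JUND (70.6 to 105), though JUN was the highest within each library. With diluent the order was JUNB, JUND, JUN, at 34.1 ± 6.86, 27.95 ± 3.55 and 8.41 ± 0.80 CPM per kb. JUNB and JUND did not differ beyond their spread over libraries in these 3 groups, though JUNB was the higher of the pair within each library.

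In ML1 with prexasertib JUNB led at 403 ± 105, followed by JUN at 336 ± 90.2 and JUND at 169 ± 17.6 CPM per kb. With diluent it was JUNB, JUND, JUN, at 22.9 ± 3.65, 19.0 ± 1.87 and 3.17 ± 0.83 CPM per kb. Within each group all 3 libraries had the same order. The ML1 levels of JUNB and JUN with prexasertib, and of JUNB and JUND with diluent, lay within their spread over libraries. JUN led under prexasertib in U937 and JUNB in ML1. Gene lengths from GENCODE gave the same order in every library.

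As a share of the family sum per kb, JUN made up 16.4% ± 5.2 with both compounds, 46.1% ± 6.89 with prexasertib and 12.1% ± 1.43 with diluent in U937 (SD, n = 3). In ML1 it made up 36.8% ± 1.46 with prexasertib and 7.0% ± 1.43 with diluent. JUND made up 25.8% ± 3.75 with prexasertib and 39.8% ± 2.04 with diluent in U937. In ML1 its share was 19.0% ± 2.94 with prexasertib and 42.4% ± 2.40 with diluent. JUNB had the largest share with diluent, 48.1% ± 2.63 in U937 and 50.6% ± 1.35 in ML1. The family sum was 69.3 ± 17.1 CPM per kb with both compounds, 360 ± 120 with prexasertib and 70.4 ± 10.7 with diluent in U937, and 907 ± 208 with prexasertib and 45.04 ± 5.95 with diluent in ML1.

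**Figure D4:**
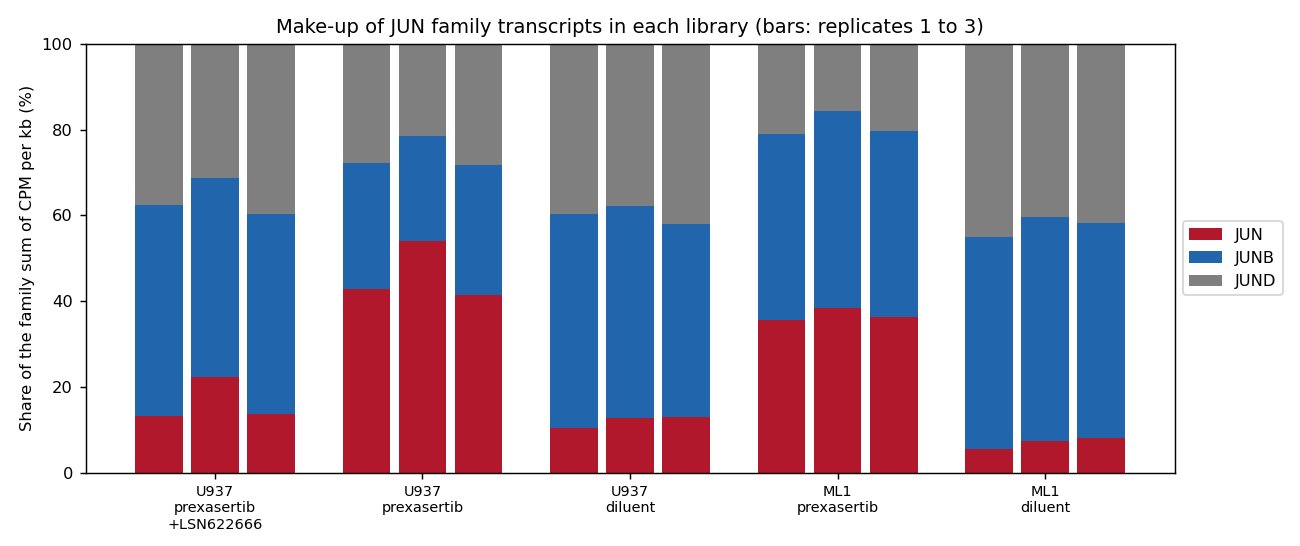
Share of JUN, JUNB and JUND in the family sum of CPM per kb, in percent, for each library (3 bars a group). JUN takes 41.4% to 54.0% in the U937 prexasertib libraries, 35.7% to 38.4% in the ML1 prexasertib libraries and at most 22.4% elsewhere.

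The bZIP proteins that pair with JUN were read from a list of 15 partners, of which 14 were tested (MAF was too low). In U937 with prexasertib 7 rose and 0 fell, against 18.3% and 12.8% of all genes, and 6 rose without prexasertib replicate 2. The list's median log2 fold change was 0.55, and that of all genes 0.00. FOSB (2.86 ± 0.30), ATF3 (4.94 ± 0.49), FOS (3.63 ± 0.40) and BATF2 (3.18 ± 0.44) had the smallest p, the largest adjusted one being 8.76e-05. FOS, the usual partner of JUN, stood at 42.4, 80.1 and 31.8 CPM in prexasertib libraries and at 4.28, 5.49 and 2.63 CPM in diluent libraries. ATF3, a stress-induced factor that also pairs with JUN, stood at 132, 319 and 104 CPM with prexasertib and at 6.29, 5.51 and 6.33 CPM with diluent. Neither gene's groups overlapped.

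In ML1 7 partners rose and 1 fell, against 25.3% and 23.5% of all genes, with a median of 0.80. FOSB rose by 6.86 ± 0.38 and ATF3 by 7.84 ± 0.56. With LSN622666 added in U937, 0 rose and 10 fell, against 11.9% and 17.1% of all genes (8 fell without prexasertib replicate 2), with a median of -0.67. With both compounds against diluent, 2 partners were higher and 1 lower, against 6.88% and 4.11% of all genes. The lower one was JDP2 (-0.54 ± 0.14, adjusted p = 0.0221). Unlike the JUN genes, FOS and FOSB had a call above diluent there, of 1.26 ± 0.38 (adjusted p = 0.046) and 1.18 ± 0.29 (adjusted p = 0.0175). The difference between these genes and the JUN genes was not tested.

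**Figure D5:**
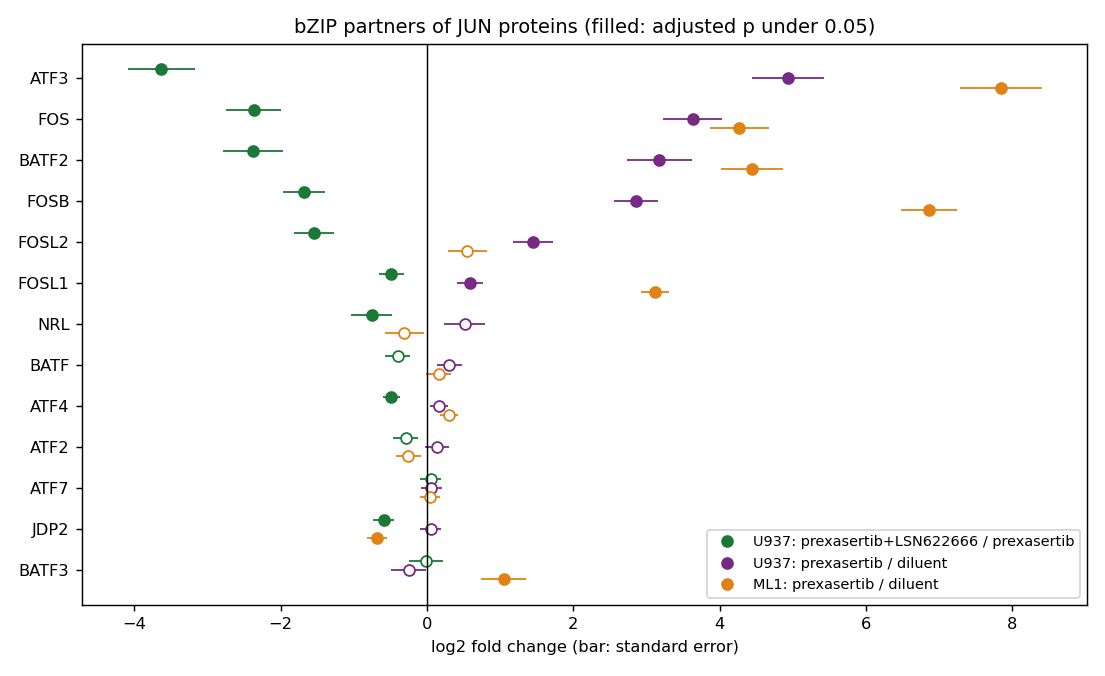
Log2 fold changes with standard errors of 13 of the 14 tested bZIP partners of the JUN proteins, for both compounds against prexasertib and prexasertib against diluent in U937, and prexasertib against diluent in ML1. Filled points passed the adjusted p threshold of 0.05. ATF3, FOS, BATF2, FOSB and FOSL1 are higher with prexasertib in both lines and lower when LSN622666 is added.

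In the JNK route to JUN, genes of JNK phosphatases rose and a pair of kinase genes fell slightly. Of 14 genes 13 were tested, and 5 rose and 2 fell in U937 with prexasertib, where 18.3% of all tested genes were called higher and 12.8% lower. The 5 were all dual-specificity phosphatases, led by DUSP8 (5.61 ± 0.45), DUSP10 (3.34 ± 0.27), DUSP1 (4.25 ± 0.34) and DUSP16 (1.91 ± 0.24), which remove phosphate from JNK or related kinases. The 2 that fell were MAPK9, which encodes JNK2 (-0.44 ± 0.12, adjusted p = 0.013), and MAP2K4, a kinase that activates JNK (-0.36 ± 0.11, adjusted p = 0.0189). MAPK8, which encodes JNK1, stood at 36.7 ± 2.11 CPM with prexasertib and 37.5 ± 3.26 CPM with diluent and had no call. In ML1 6 of the 13 rose and 2 fell, MAPK8 (-0.74) and MAPK9 (-0.98), against 25.3% and 23.5% of all genes. With LSN622666, 3 rose and 6 fell relative to prexasertib (11.9% and 17.1% of all genes), and the 3 that rose were the JNK scaffold genes MAPK8IP1, MAPK8IP2 and MAPK8IP3 (0.83, 1.94 and 0.90), named after their values were seen. With both compounds against diluent, 6 of the 13 were higher and 1 lower, against 6.88% and 4.11% of all genes. The 6 were the 3 scaffold genes, DUSP8 (1.60), DUSP10 (0.90) and DUSP1 (1.11), and the lower one was MAPK9 (-0.41). The list median was 0.20 in U937 and 1.09 in ML1 with prexasertib, and -0.27 with LSN622666 added, relative to prexasertib.

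Among 13 regulators of JUN proteins, 2 rose and 2 fell in U937 with prexasertib (median -0.17), near the shares of all genes, 18.3% and 12.8%. TRIB1 (3.81 ± 0.37) and TRIB2 (0.75 ± 0.20), pseudokinases that recruit the COP1 ubiquitin ligase, rose. RFWD2, the older symbol of the COP1 gene, fell by 0.72 ± 0.13 on the log2 scale (adjusted p = 0.00066), to 50.02 ± 8.19 CPM with prexasertib, against 82.1 ± 1.77 CPM with diluent. HDAC3, a deacetylase that restrains JUN, fell too (-0.35 ± 0.12, adjusted p = 0.0341). The ubiquitin ligase gene ITCH and FBXW7, both of which act on JUN proteins, had no call in U937 with prexasertib against diluent. Both were higher in ML1 with prexasertib (0.45 and 0.50, adjusted p = 0.00305 and 0.0332). With LSN622666 added in U937, ITCH was lower than with prexasertib alone (-0.37, adjusted p = 0.0222) and FBXW7 had no call. In ML1 4 rose and 4 fell (median -0.08), against 25.3% and 23.5% of all genes. With LSN622666 2 rose and 4 fell relative to prexasertib (median -0.04), against 11.9% and 17.1%.

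Of 10 factors reported at JUN family promoters, 2 rose and 0 fell in U937, STAT3 (0.38 ± 0.10) and MEF2A (0.30 ± 0.11, adjusted p = 0.0392). The share that rose was near that of all genes (18.3% higher, 12.8% lower). ELK4 (0.29 ± 0.12) and MEF2D (0.27 ± 0.16) had no call. The list median was 0.16. In ML1 4 rose and 2 fell, against 25.3% and 23.5% of all genes, and with LSN622666 0 rose and 4 fell relative to prexasertib, against 11.9% and 17.1%.

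Reported AP-1 target genes largely rose with the family. Of 21 genes 17 were tested (IL6, CSF2, MMP3 and MMP12 were too low). In U937 15 rose and 1 fell (11 and 0 without prexasertib replicate 2), with a median of 2.08. MMP1 and SPP1, among the 15, reached at most 0.04 and 0.21 CPM with diluent in U937. They stood at 0.24 to 1.67 and 0.43 to 1.35 CPM with prexasertib. Both passed the count filter through treated libraries, so their rises are no separate evidence. With the stricter filter of 5 CPM in 3 libraries 13 rose. Of all genes 18.3% were called higher and 12.8% lower. CXCL8, a neutrophil chemokine, rose by 4.60 ± 0.37, the adhesion molecule gene ICAM1 by 1.92 ± 0.21, the growth factor gene HBEGF by 2.63 ± 0.28 and PLAU, the urokinase gene, by 1.11 ± 0.13. The 1 that fell was TIMP1, an inhibitor of metalloproteinases, by 0.33 ± 0.12 (adjusted p = 0.0444). That call ended under 4 alternatives, given in the section on processing, and without diluent replicate 1 or 2 or prexasertib replicate 1 or 2. In ML1 15 rose and 0 fell (median 2.88), against 25.3% and 23.5% of all genes. With the stricter filter 14 rose there. SPP1, among the 15, stood at 0.07 to 0.14 CPM with diluent and 0.44 to 1.35 CPM with prexasertib in ML1. Its rise is no separate evidence in that line either. With LSN622666 0 rose and 12 fell relative to prexasertib (median -1.58), against 11.9% and 17.1%. The number that fell ran from 10 to 14 with 1 library left out. With both compounds against diluent, 3 targets were higher and 1 lower, against 6.88% and 4.11% of all genes. CCND1 (0.93), CXCL8 (1.11) and TNF (1.34) were higher and VEGFA (-0.38) was lower. TNF is itself on this list, and several of these genes are targets of NF-kB as well.

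Over the 15 libraries, the log2 CPM of JUN was closest to that of TNFSF9, a TNF family ligand gene (Pearson r = 0.994), and then to SLC25A25 (0.989), IER3 (0.985), RND1 (0.984) and NFIL3 (0.982). JUNB was closest to the factor gene CEBPB (0.993), then LINC00936 (0.987), CSRNP1 (0.986), PLEKHO2 (0.982) and IER5 (0.981). JUND was closest to TNFSF9 (0.987), CSRNP1 (0.986), GHRL (0.980), SLC25A25 (0.979) and ATF3 (0.977). These correlations describe the 5 groups more than single libraries, since the libraries share treatments and lines. After group means were subtracted, the value was 0.877 for JUN with TNFSF9, 0.874 for JUNB with CEBPB and 0.772 for JUND with TNFSF9. Over the other named genes it ran from 0.453 (NFIL3) to 0.865 (IER3) for JUN, from 0.609 (CSRNP1) to 0.847 (PLEKHO2) for JUNB and from 0.459 (GHRL) to 0.904 (SLC25A25) for JUND.

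Among the members, r was 0.944 for JUN with JUNB, 0.980 for JUN with JUND and 0.977 for JUNB with JUND, and 0.833, 0.732 and 0.883 after group means were subtracted. TNF correlated at 0.961 with JUNB, 0.913 with JUND and 0.877 with JUN, and was 38th, 194th and 353rd in their lists of closest genes. After group means were subtracted, these TNF values were 0.705, 0.695 and 0.620.

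The nearest tested genes around each member were also read, a choice made after the files were seen. MYSM1, below JUN on chromosome 1, had no call under prexasertib in U937 (0.28 ± 0.17) or ML1 (0.38 ± 0.17). LINC01135 is a noncoding gene that starts 1104 bases from JUN and runs the other way. In U937 it stood at 0.54 to 0.67 CPM with prexasertib and 0 to 0.13 CPM with diluent. The log2 fold change was 3.59 ± 0.83 (adjusted p = 0.00419). In ML1 LINC01135 reached at most 0.09 CPM and had no call. It passed the count filter through the U937 prexasertib libraries, so its rise follows in part from the filter. Next to JUNB, HOOK2 had no call in U937 (0.06 ± 0.14) and rose by 0.52 ± 0.14 in ML1. HOOK2 was higher with LSN622666 added (0.49 ± 0.14 against prexasertib, adjusted p = 0.0137), where JUNB was lower. PRDX2, on the other side of JUNB, was lower in U937 with prexasertib (-0.48 ± 0.17, adjusted p = 0.0446) and higher in ML1 (0.90 ± 0.27, adjusted p = 0.00964). The ML1 value rests on very low levels, 0.44 to 0.92 CPM with prexasertib and 0.39 to 0.42 CPM with diluent. In U937 PRDX2 stood at 35.2 to 50.8 CPM with prexasertib and 56.8 to 61.7 CPM with diluent. BEST2 was higher in U937 (1.92 ± 0.61, adjusted p = 0.0245) at about 1 CPM or less and had no call in ML1. At 0.09 to 0.31 CPM with diluent in U937, BEST2 too passed the count filter mainly through treated libraries.

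KIAA1683 lies 5242 bases beyond the 3′ end of JUND on the same strand. It stood at 11.8 ± 6.33 CPM with prexasertib and 0.60 ± 0.26 CPM with diluent in U937 (log2 fold change 4.26 ± 0.51, adjusted p = 3.33e-05), and at 45.4 ± 14.9 CPM with prexasertib and 1.05 ± 0.29 CPM with diluent in ML1 (5.44 ± 0.51, adjusted p = 3.1e-07). With LSN622666 it fell relative to prexasertib (-2.55 ± 0.45, adjusted p = 0.000773). LSM4, on the other side of JUND, had no call in U937 (-0.25 ± 0.15) and fell in ML1 (-1.23 ± 0.15). Whether reads from beyond the end of JUND reach KIAA1683 was not tested.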

How the data were processed

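RNA-seq was read from 15 libraries in 5 groups of 3, with groups and replicate numbers from the labels. The values are raw counts for each gene symbol, as the authors deposited them. Per the submitters' processing notes, TopHat2 2.0.14, Bowtie2 2.2.6, featureCounts 1.4.6 and Subread were used with hg38. For the gene annotation and the strand setting, the sources used here give nothing. Per the labels, the library kit was TruSeq v2, a kit without strand marking. Every column matched a sample, and no replicate pair was identical or within sampling noise.

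The tests were run with edgeR 4.0.16 under R 4.3.3. Of 26485 genes, 17243 passed filterByExpr. TMM factors scaled the libraries. A single robust quasi-likelihood model, holding 1 mean for each of the 5 groups, left 10 residual degrees of freedom. Its p-values were adjusted by Benjamini-Hochberg across the tested genes, with 0.05 as the threshold. Errors after a log2 fold change are standard errors, and errors after a level are SDs (n = 3). Count ratios used a prior count of 0.5 and two-sided exact permutation tests. Correlations used log2 CPM with a prior count of 2. Totals above 49011222 counts leave little counting error for the 3 members, so that the spread between libraries limits precision. The fit was tested on simulated data. Deviations of same-numbered libraries correlated at 0.409, 0.37 and 0.384 between U937 with both compounds and with prexasertib, all above the 0.1 limit, so these numbers pair. In other group pairs at least 1 value was lower.

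The members, the 5 gene lists and the naming rule were chosen with earlier results of these data known. From each list, up to 4 genes with the smallest p in U937 and up to 2 that went against the rest were named, with TNF and the 5 genes most like each member. Other genes were named after their values were seen. The values of 1 partner are not reported here, though counts and medians of its list include it. Promoters are RefSeq's (GRCh38.p14; 3 of 3 members matched) and gene coordinates GENCODE v29's. Alternatives were DESeq2 1.42.0, other scalings and filters, fits to the groups compared, a replicate block, thinned counts and leaving out each library.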

Additional observations from a re-analysis of the deposited data

Results flagged for a closer look

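The effect of prexasertib differed between the lines for the 3 members, by the test of the difference itself in edgeR. The U937 effect minus the ML1 effect was -2.38 for JUN (adjusted p = 0.00361), -2.61 for JUNB (adjusted p = 6.33e-06) and -1.46 for JUND (adjusted p = 4.84e-05). All 3 treated libraries were above all 3 diluent libraries in each line, so the lines differed in the size of the rise and not in its direction. Leaving out any 1 library, the difference ran from -2.86 to -2.12 for JUN, from -2.80 to -2.36 for JUNB and from -1.62 to -1.31 for JUND.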

How the results depend on the processing

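Under prexasertib against diluent in each line, LSN622666 added to prexasertib and the difference between lines, JUN, JUNB and JUND kept direction and call under every alternative run. The JUNB difference between the lines with diluent (0.58) lost its call without 1 of 4 libraries and ran from 0.43 to 0.73. With both compounds against diluent, where no member had a call, JUNB (-0.06) had the other sign with upper-quartile factors (0.047) or the stricter filter of 5 CPM in 3 libraries (0.045), and ran from -0.252 to 0.0797 with 1 library left out. JUN ran from -0.0753 to 0.743 there. The JUNB to JUND ratio between the lines with diluent (0.01) ran from -0.0457 to 0.0989. The causes were not tested. Of the AP-1 targets, 0 in place of 1 fell in U937 with upper-quartile factors, no filter, the stricter filter or only the groups compared, and 0 to 1 with 1 library left out. Partners that fell in ML1 numbered 1 to 2 with 1 library left out. The replicate block changed no call of the 3 members: against prexasertib alone, JUN with both compounds was at -3.87, JUNB at -1.59 and JUND at -1.87 in the fit with the replicate block. That fit called 9 partners higher in ML1 (7 without it), and with both compounds against prexasertib 11 partners (10) and 13 AP-1 targets (12) lower. In U937 libraries only with the replicate block, chosen after seeing the data, 1 AP-1 target rose with both compounds against prexasertib, in place of 0. A 3 against 3 exact test cannot go below p = 0.1.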
